A study of Mus musculus with 35 samples.

Results

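Platelet and megakaryocyte genes were followed in whole lung of mice that breathed styrene, a volatile solvent. They were a list of 9 genes: Gp1bb, Gp9, Gp5, Gp1ba, Itga2b, Itgb3, Gp6, Pf4 and Ppbp. The first 7 encode surface receptors and the last 2 encode chemokines of platelet granules. A gene was measured where a probe set carried its symbol and no other, and its probe set with the highest mean over the 35 arrays stood for it. This gave 8 of the 9 genes, among 17097 genes measured in this way, and Gp1ba had no such probe set. The list was chosen by earlier log2 differences of exposed mice from the air mice, in which Gp1bb, Gp9 and Itga2b were among the genes that fell the farthest. Differences from air are therefore given as a description, with no test. Tests were made between the 1, 10 and 20 ppm mice.

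The animals were adult male CD-1 mice, an outbred stock. Each group held 5 mice, which breathed air alone or air with styrene at 1, 5, 10, 20, 40 or 120 ppm, and each mouse gave 1 array of its whole lung. The exposure was 6 hours on 1 day by the protocol and the sample titles, and 5 days by the series title and the sample characteristics. No choice between them was made here. All mice, controls included, were killed by pentobarbital and exsanguination on the next morning, so the blood left in a lung was not fixed by the design. Whole lung holds every cell type of the organ, and 9 lung epithelial markers had a mean of 11.5 to 11.8 log2 on every array.

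Platelets are cell fragments shed by megakaryocytes, and they carry messenger RNA made in those cells. Megakaryocytes and platelets are both found in the vessels of the lung. Platelets catch on a damaged vessel wall through the GPIb-IX-V complex, which binds von Willebrand factor, and through Gp6, which binds collagen. They then bind fibrinogen through the integrin of Itga2b and Itgb3 and release chemokines from their alpha granules.

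Promoter sequences are shown as a description, and their part in the values below was not tested. The promoter table from RefSeq on GRCm38.p6 held 8 of the 9 genes, without Itgb3. Megakaryocyte genes are known targets of GATA, ETS and SP family factors, so 1 short motif for each was searched on both strands. The GATA family motif was spelled AGATAA. The ETS family motif was spelled AGGAAG. For the SP family the letters searched were GGGCGG. The 150 bases upstream of the transcription start are given 5′ to 3′ on the strand of the gene, with a motif match in capitals on either strand. The windows are chr16:18622404-18622553 for Gp1bb (minus strand), chr6:87777920-87778069 for Gp9 (plus), chr16:30310782-30310931 for Gp5 (minus), chr11:102469884-102470033 for Itga2b (minus), chr5:90772285-90772434 for Pf4 (plus) and chr5:90768368-90768517 for Ppbp (plus).
Gp1bb: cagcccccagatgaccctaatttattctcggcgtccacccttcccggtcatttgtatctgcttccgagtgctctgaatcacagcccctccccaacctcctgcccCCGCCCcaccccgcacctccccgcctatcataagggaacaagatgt
Gp9: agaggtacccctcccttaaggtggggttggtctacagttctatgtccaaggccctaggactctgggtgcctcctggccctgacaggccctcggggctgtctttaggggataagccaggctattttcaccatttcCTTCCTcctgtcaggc
Gp5: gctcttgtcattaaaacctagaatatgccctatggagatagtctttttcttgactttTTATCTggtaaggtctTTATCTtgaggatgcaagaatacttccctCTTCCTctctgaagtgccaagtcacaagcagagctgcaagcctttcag
Itga2b: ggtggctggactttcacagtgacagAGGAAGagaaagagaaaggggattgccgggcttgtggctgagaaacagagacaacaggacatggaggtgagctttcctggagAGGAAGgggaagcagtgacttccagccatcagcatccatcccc
Pf4: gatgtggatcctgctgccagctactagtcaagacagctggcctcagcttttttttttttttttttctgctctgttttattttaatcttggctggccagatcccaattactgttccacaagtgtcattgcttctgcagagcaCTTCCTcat
Ppbp: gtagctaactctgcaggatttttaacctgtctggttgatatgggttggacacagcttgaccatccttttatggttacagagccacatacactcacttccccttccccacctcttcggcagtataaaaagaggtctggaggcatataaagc
The ETS motif lay 11 to 16 bases upstream of the start in Gp9 and Gp1ba, and 4 to 9 bases upstream in Pf4. Itga2b held it at 38 to 43 and at 120 to 125 bases, and Gp5 at 43 to 48 bases. These 5 of 8 promoters compare with 19.7% of all 32851 promoters in the table. The GATA motif was present in Gp5, at 72 to 77 and at 88 to 93 bases, and in Gp6, at 139 to 144 bases, against 5.65% of all promoters. The SP motif was present in Gp1bb alone, at 41 to 46 bases, against 28.6%. Ppbp held none of the 3 motifs in this window. The search reached farther upstream than the bases printed, with no further match in these genes. Over that longer stretch the shares of all promoters were 29.5% for the ETS, 9.99% for the GATA and 32.7% for the SP motif. A match is a match of letters, other spellings of the sites of a family were not searched, and no binding was measured.

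The genes lie on 5 chromosomes. Ppbp (chr5:90768518-90770063) and Pf4 (chr5:90772435-90773383) are neighbours. Gp1bb (chr16:18620319-18622403) overlaps Septin5 (chr16:18621811-18629938), and 1 probe set was annotated to both and was kept out of the gene values. Itga2b (chr11:102453297-102469883) and Itgb3 (chr11:104608000-104670476) share a chromosome with Gp1ba (chr11:70639102-70643986).

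The arrays themselves fell into 2 sets. A first principal component with 67.3% of the variance parted air and 1 ppm from 5 to 120 ppm. Values spread less widely on arrays of air and 1 ppm, with an interquartile range per array of 2.66 to 3.16 log2, than on those from 5 ppm up (3.28 to 3.54 log2). Most genes also differed between groups of the 2 sets. Counts of the 8 genes are therefore printed beside the share of all genes that passed the same rule. The labels give no processing batch, so a batch shared by the arrays of a set and the exposure cannot be told apart. In whole tissue, fewer cells of a type and less RNA per cell cannot be told apart either.

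Mean levels of Gp1bb, Gp9, Gp5, Itga2b and Pf4 were lower at 5 to 120 ppm than in air or at 1 ppm, whereas the mean of Ppbp was higher. All 25 mice from 5 ppm up lay below all 10 mice of air and 1 ppm for Gp1bb, Gp9, Gp5 and Itga2b. Among all genes, 14.4% had every one of the 25 mice below the 10, and 15.1% had every one above. These air mice entered the choice of the list, so nothing is read from the count. The levels did not step down with each higher concentration, as the plot of values by mouse shows.

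**Figure D1:**
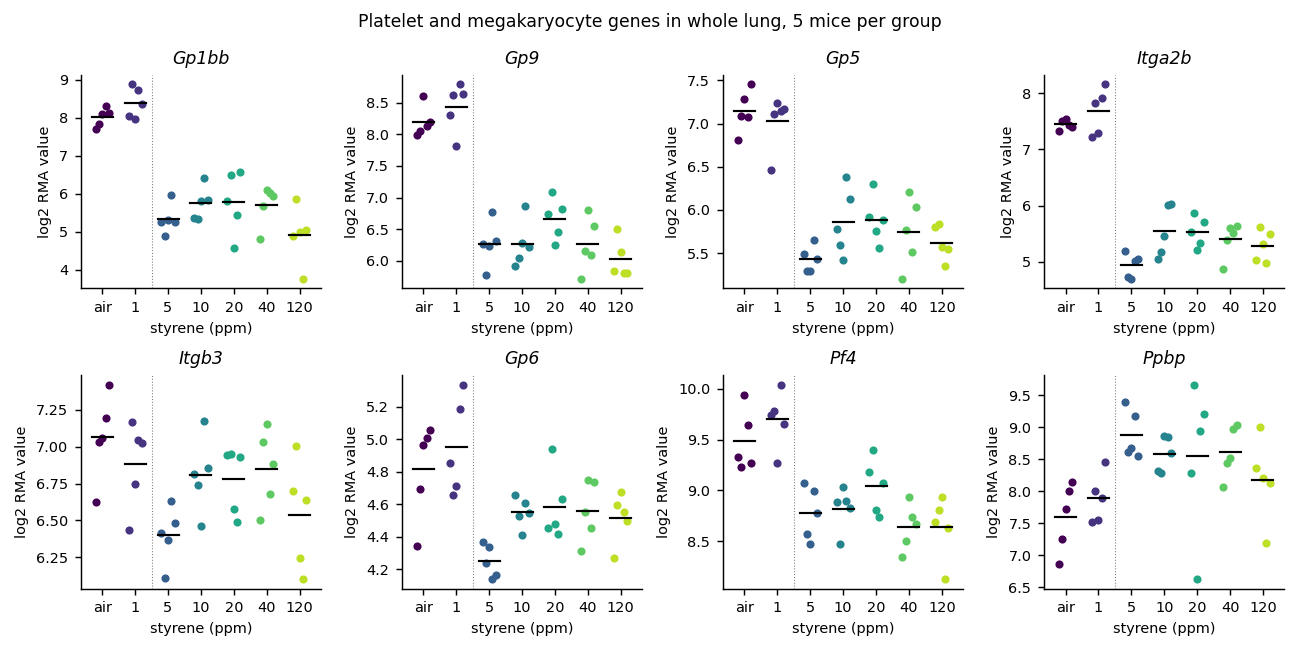
Each point is the log2 RMA value of 1 mouse against the styrene concentration in ppm for the 8 measured genes, with 5 mice in each group, a bar at the group mean and a scale of its own for each gene. For Gp1bb, Gp9, Gp5 and Itga2b all 25 mice to the right of the dotted line lie below the 10 to its left, and for Ppbp the means to the right are higher, with 1 mouse at 20 ppm at 6.63.

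Gp1bb encodes the beta chain of GPIb, which holds the receptor for von Willebrand factor together in the membrane. Its values in mice 1 to 5 were 7.70, 7.84, 8.10, 8.31 and 8.14 log2 in air, and 8.04, 8.89, 7.96, 8.74 and 8.38 at 1 ppm. They were 5.25, 4.89, 5.31, 5.97 and 5.27 at 5 ppm, 5.37, 5.33, 5.81, 6.43 and 5.83 at 10 ppm, and 5.81, 6.49, 4.57, 5.45 and 6.58 at 20 ppm. At 40 ppm they were 4.81, 5.68, 6.09, 6.01 and 5.94, and at 120 ppm 4.89, 5.87, 5.00, 3.77 and 5.04. No mouse from 5 ppm up reached the lowest mouse of air or 1 ppm, and the ranges of the 5 upper groups overlapped between neighbours in the order of their means. That order was 1 ppm (8.40 ± 0.411, SD, n = 5), air (8.02 ± 0.245), 20 ppm (5.78 ± 0.825), 10 ppm (5.75 ± 0.443), 40 ppm (5.71 ± 0.523), 5 ppm (5.34 ± 0.389) and 120 ppm (4.91 ± 0.750). The difference from air was thus largest at 120 ppm (-3.10 ± 0.325 log2, SE) and next at 5 ppm (-2.68).

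Gp9 encodes glycoprotein IX, the small subunit that the complex needs to reach the cell surface. Its values were 7.99, 8.06, 8.61, 8.14 and 8.19 log2 in air, and 8.31, 8.62, 7.82, 8.79 and 8.64 at 1 ppm. Then came 6.26, 5.77, 6.23, 6.77 and 6.31 at 5 ppm, 5.92, 6.05, 6.28, 6.87 and 6.22 at 10 ppm, and 6.74, 7.08, 6.26, 6.45 and 6.82 at 20 ppm. At 40 ppm they were 5.72, 6.15, 6.80, 6.10 and 6.56, and at 120 ppm 5.84, 6.51, 6.14, 5.81 and 5.81. The highest mouse from 5 ppm up, 20 ppm mouse 2, lay at 7.08 and the lowest mouse below that concentration, 1 ppm mouse 3, at 7.82. The differences from air were -1.93 at 5, 10 and 40 ppm, -1.53 at 20 ppm and -2.18 at 120 ppm (SE 0.208 each).

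Gp5 encodes glycoprotein V, the subunit of the complex that thrombin cuts. Air mice had 6.81, 7.08, 7.29, 7.08 and 7.45 log2 and 1 ppm mice 6.46, 7.11, 7.24, 7.14 and 7.17. The values were 5.49, 5.29, 5.29, 5.66 and 5.43 at 5 ppm, 5.78, 5.59, 5.42, 6.38 and 6.12 at 10 ppm, and 5.91, 6.30, 5.75, 5.56 and 5.88 at 20 ppm. At 40 ppm they were 5.21, 5.77, 6.21, 5.52 and 6.03, and at 120 ppm 5.80, 5.84, 5.57, 5.36 and 5.54. The sets came closest in this gene, at 6.38 in 10 ppm mouse 4 and 6.46 in 1 ppm mouse 1, which was far below the other mice of its group. Differences from air ran from -1.71 at 5 ppm to -1.26 at 20 ppm (SE 0.179).

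Itga2b encodes the alpha IIb chain of the fibrinogen receptor, an integrin of the megakaryocyte lineage. Its values were 7.33, 7.51, 7.54, 7.43 and 7.40 log2 in air, and 7.22, 7.82, 7.29, 7.91 and 8.16 at 1 ppm. They were 5.20, 4.73, 4.70, 5.02 and 5.06 at 5 ppm, 5.05, 5.18, 5.47, 6.01 and 6.02 at 10 ppm, and 5.54, 5.86, 5.21, 5.33 and 5.71 at 20 ppm. At 40 ppm they were 4.88, 5.38, 5.60, 5.51 and 5.64, and at 120 ppm 5.03, 5.62, 5.32, 4.97 and 5.49. The 2 sets were more than 1 log2 apart, with 6.02 as the highest mouse from 5 ppm up and 7.22 as the lowest below it. Here 5 ppm lay lowest (-2.50 ± 0.188 from air), and the other 4 groups lay between -1.90 and -2.16.

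Itgb3 encodes the beta3 chain, which pairs with alpha IIb on platelets and with alpha v on other cells. Its brighter probe set had group means from 6.40 ± 0.193 at 5 ppm to 7.07 ± 0.293 in air (SD, n = 5). Neighbouring groups overlapped throughout, and 5 of the 25 mice from 5 ppm up lay below all 10 others. The second probe set was dim, at 4.40 log2 over all arrays against array medians of 4.35 to 4.56. In it 21 of the 25 mice lay below the 10, so the probe sets of this gene did not give the same picture.

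Gp6 encodes the collagen receptor of platelets. Its probe set was dim too, at 4.60 log2 over all arrays. Group means were 4.81 ± 0.298 in air, 4.95 ± 0.298 at 1 ppm and 4.25 ± 0.101 at 5 ppm, and 4.52 to 4.58 in the other 4 groups. The ranges overlapped, with 6 of the 25 mice below all 10.

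Pf4 and Ppbp encode CXC chemokines that megakaryocytes pack into alpha granules, platelet factor 4 and the precursor of CXCL7. Pf4 had 9.33, 9.23, 9.94, 9.65 and 9.27 log2 in air, and 9.74, 9.78, 9.27, 10.04 and 9.65 at 1 ppm. It had 9.07, 8.57, 8.47, 8.99 and 8.77 at 5 ppm, 8.88, 8.48, 9.03, 8.89 and 8.82 at 10 ppm, and 9.18, 9.40, 8.81, 8.74 and 9.08 at 20 ppm. At 40 ppm the values were 8.34, 8.50, 8.93, 8.73 and 8.67, and at 120 ppm 8.69, 8.81, 8.93, 8.13 and 8.63. All mice from 5 ppm up but 20 ppm mouse 2 lay below all 10 mice of the other set. Differences from air were -0.44 at 20 ppm to -0.85 at 40 and 120 ppm (SE 0.163).

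Ppbp, the gene next to Pf4, took the other direction. Its values were 6.87, 7.26, 7.72, 8.0 and 8.15 log2 in air, and 7.53, 8.0, 7.55, 7.90 and 8.46 at 1 ppm. They were 9.40, 8.61, 8.67, 9.17 and 8.55 at 5 ppm, 8.31, 8.28, 8.86, 8.84 and 8.60 at 10 ppm, and 8.28, 9.67, 6.63, 8.94 and 9.20 at 20 ppm. At 40 ppm they were 8.07, 8.44, 8.52, 8.97 and 9.04, and at 120 ppm 8.37, 9.0, 8.21, 7.18 and 8.13. All 5 mice at 5 ppm lay above all 10 of air and 1 ppm, the other 4 groups overlapped those 10, and 20 ppm mouse 3 lay below them all. The difference from air was 1.28 ± 0.363 log2 (SE) at 5 ppm, 0.98 at 10 ppm, 0.95 at 20 ppm, 1.01 at 40 ppm and 0.58 at 120 ppm. When the array axis, the main direction of spread between mice of a group, was added as a covariate, these differences were below 0 (-0.18 to -0.89). With the interquartile range of the array as the covariate they were 0.41, 0.26, 0.27 and 0.29 at 5, 10, 20 and 40 ppm and -0.18 at 120 ppm. Neither covariate overlapped between air and 5 to 120 ppm, so both fits are extrapolated.

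**Figure D2:**
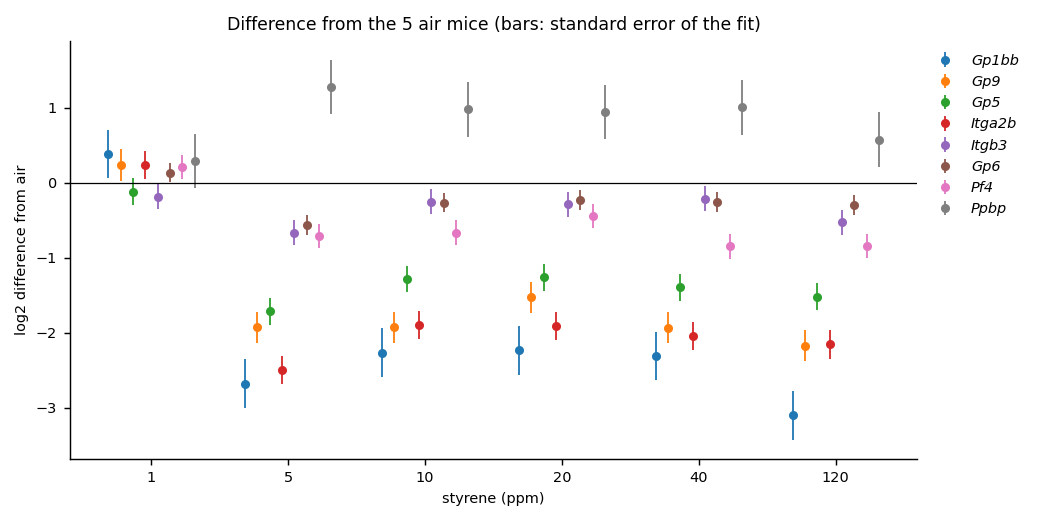
Points are fitted log2 differences of the 8 genes from the 5 air mice at each concentration in ppm, and bars are standard errors of the fit, with points of a concentration set side by side. From 5 ppm up Gp1bb, Gp9, Itga2b and Gp5 lie between -1.26 and -3.10 and Ppbp lies between 0.58 and 1.28, and the air mice are shared by all the differences.

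Mice at 10 and 20 ppm were then compared with mice at 1 ppm. Earlier results of these data were known when the list was made, and may have included 10 and 20 ppm against air. The tests are therefore not independent of the list. On the first principal component the 1 ppm arrays also lay with those of air. The counts and p values below describe the listed genes and are no support for the choice of them. Of the 8 genes, 6 were called lower at 10 ppm than at 1 ppm (limma, adjusted p under 0.05 over all genes), which is 75%, beside 39.5% of all genes called lower and 31.2% called higher. At 20 ppm it was again 6 of 8, beside 36.1% lower and 31.9% higher. None of the 8 was called higher. The ranges of the mice did not overlap for 6 of the 8 genes at 10 ppm, all lower, beside 26.1% of all genes, and for 4 at 20 ppm, beside 21.9%. Both comparisons share the 1 ppm mice.

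Gp1bb was lower by the most, at -2.65 ± 0.325 log2 (SE) at 10 ppm (limma adjusted p = 1.15e-08) and -2.62 at 20 ppm (adjusted p = 1.66e-08), with all 5 mice of each group below the 1 ppm mice. Gp9 was -2.17 ± 0.208 at 10 ppm (adjusted p = 7.57e-11) and -1.77 at 20 ppm (adjusted p = 6.2e-09). For Itga2b the differences were -2.13 ± 0.188 (adjusted p = 1.14e-11) and -2.15 (adjusted p = 1.14e-11). The differences of these receptor subunits were more than 8 standard errors each. All were among the genes that fell the farthest from air when the list was chosen, so their p values lend them no support. Gp5 differed by about as much at 10 ppm (-1.16 ± 0.179, adjusted p = 8.41e-07) as at 20 ppm (-1.14, adjusted p = 1.27e-06).

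Pf4 fell by 0.88 ± 0.163 log2 at 10 ppm (adjusted p = 1.77e-05) and by 0.66 at 20 ppm (adjusted p = 0.000684). Gp6 differed by -0.40 ± 0.130 at 10 ppm (adjusted p = 0.00719) and -0.37 at 20 ppm (adjusted p = 0.0139). The 20 ppm call of Gp6 was lost without 1 ppm mouse 5 (-0.27, adjusted p = 0.0678) and when only the 2 groups were fitted (adjusted p = 0.0551). Itgb3 was not called, at -0.07 ± 0.168 (adjusted p = 0.709) and -0.10 (adjusted p = 0.591). Its second probe set was, at -0.64 ± 0.131 at both concentrations (limma over all probe sets, adjusted p = 8.54e-05 and 8.96e-05).

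Ppbp was 0.69 ± 0.363 log2 higher at 10 ppm (adjusted p = 0.0876) and 0.66 higher at 20 ppm (adjusted p = 0.108), and neither difference was called. At 20 ppm 1 mouse decided this: without mouse 3 the difference was 1.13 (adjusted p = 0.00117). At 10 ppm it was called when only the 2 groups were fitted (adjusted p = 0.00609). The log2 value of Ppbp minus that of Pf4 on the same array was chosen after the values of both genes had been seen and is given as a description, with no test. It was -0.242 ± 0.195 (SD, n = 5) at 10 ppm and -1.81 ± 0.410 at 1 ppm, a difference of 1.57 with no overlap. At 20 ppm it was -0.495 ± 1.05, a difference of 1.31, and 1.74 without mouse 3.

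Between 10 and 20 ppm none of the 8 genes was called, and the farthest was Gp9 at 0.40 ± 0.208 (adjusted p = 0.566). None of the 17097 genes was called in this comparison with limma either (0%), and 1589 had an unadjusted p under 0.05, none of the 8 among them. A p that misses the threshold does not show that the 10 and 20 ppm mice had the same levels.

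Array-wide measures moved with these differences. The interquartile range was 2.66 to 2.97 at 1 ppm, 3.36 to 3.45 at 10 ppm and 3.28 to 3.46 at 20 ppm, and the array axis did not overlap between 1 ppm and the other groups either. With the interquartile range as a covariate, Gp1bb (-2.51 and -2.48), Gp9 (-1.99 and -1.60) and Itga2b (-1.96 and -1.98) were still called at 10 and 20 ppm and the other 3 genes were not. These 3 of 8 stand beside 6.6% of all genes called lower at 10 ppm and 5.95% at 20 ppm in the same fit. Gp5 was -1.23 and -1.21 there (limma adjusted p = 0.0733 and 0.0659). Gp6 was -0.90 and -0.85 (adjusted p = 0.0565 and 0.0605), farther from 0 than without the covariate, whereas Pf4 went to -0.25 and -0.05. The array axis as a covariate ended the call of Pf4 alone (-0.74 and -0.55, adjusted p = 0.0682 and 0.116), which left 5 of the 8 called lower beside 11% and 14.1% of all genes. Gp6 was -0.78 and -0.69 in that fit. Either covariate turned the sign of Ppbp. These fits are extrapolated as well. Gp1bb, Gp9 and Itga2b, called in both, were among the genes that fell the farthest when the list was chosen. Nothing is read from the counts in either fit.

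Most markers of red blood cells were lower too. Slc4a1, the anion exchanger of the red cell membrane, was -2.06 ± 0.373 log2 at 10 ppm and -2.11 at 20 ppm against 1 ppm. Alas2, the first enzyme of heme synthesis in red cells, was -1.18 ± 0.189 and -1.17. Of 13 red blood cell markers, 9 were lower at 10 ppm (69.2%) and 8 at 20 ppm (61.5%), and none was higher. Of all genes, 39.5% and 36.1% were called lower in these comparisons. At 20 ppm Trim10 was -1.35 ± 0.253 and Epor, the erythropoietin receptor, -0.99 ± 0.206. The mean over the list was 5.60 to 5.79 log2 in air, 5.68 to 6.12 at 1 ppm and 4.90 to 5.48 from 5 ppm up, with no overlap. Hba-a1, an alpha globin gene and the brightest of them, stayed within 0.03 of its 1 ppm mean of 13.73 (limma adjusted p = 0.984 and 0.637), close to the highest value of any probe set on any array, 13.9. The part of red blood cell RNA in the differences of the platelet genes was not tested.

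Septin5 overlaps Gp1bb in the genome and encodes a septin of platelets and neurons, so its values are set beside those of Gp1bb. It was -0.91 ± 0.107 log2 at both concentrations against 1 ppm (limma adjusted p = 5.57e-09 and 6.7e-09). The probe set annotated to both genes was -0.94 ± 0.156 and -0.84. All 3 probe sets were lower, and Gp1bb by far the most.

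Other genes of platelets and megakaryocytes did not move as one. In 5 lists with 73 of 85 genes measured, 29 were lower and 29 higher at 10 ppm than at 1 ppm, and 28 lower and 27 higher at 20 ppm. The medians were -0.08 and -0.05 log2, beside -0.14 and -0.10 over all genes. The shares called lower were 39.7% and 38.4%, beside 39.5% and 36.1% of all genes. With the interquartile range as a covariate they were 16.4% and 15.1%, beside 6.6% and 5.95% of all genes, and with the array axis 20.5% and 21.9%, beside 11% and 14.1%. Many of these genes are also expressed by endothelium or leukocytes of the lung.

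Among 17 further surface receptors and adhesion genes, 5 were lower and 8 higher at 20 ppm than at 1 ppm. Beside this and each list count below stand 36.1% of all genes called lower and 31.9% called higher at 20 ppm. P2rx1, the ATP-gated channel of platelets, was -1.15 ± 0.142 (limma adjusted p = 1.4e-08). Cd9, a tetraspanin (1.33 ± 0.103, adjusted p = 8.2e-13), Cd36, a scavenger receptor (1.46 ± 0.155), and Selp, P-selectin (1.42 ± 0.177), were higher. Each of these 3 is also made by other lung cells. Of 16 signalling genes 6 were lower and 3 higher. Fermt3, kindlin-3, which activates integrins, was -1.99 ± 0.177 (adjusted p = 1.69e-11) and Tln1, talin, which acts beside it, -0.75 ± 0.0704. Orai1 and Stim1, the calcium channel and its sensor, were -1.23 ± 0.126 and -1.03 ± 0.115. Gng11, a G protein subunit and the brightest of the list, was -0.05 and not called.

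The 17 granule genes divided into 7 lower and 8 higher at 20 ppm. Tgfb1 (-1.65 ± 0.161) and Pdgfb (-1.43 ± 0.148), growth factors stored in alpha granules, and Hps1 (-1.08 ± 0.148), needed to make dense granules, were lower. Srgn, the proteoglycan that holds granule contents, was 0.93 ± 0.115 higher, and Sparc 0.18 ± 0.0760. Of 9 cytoskeleton genes 2 were lower, among them the focal adhesion gene Zyx (-1.25 ± 0.127), and 4 were higher, among them Tmod3 (2.21 ± 0.157), Vcl (1.59 ± 0.116) and Tpm4 (1.53 ± 0.130).

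Regulators of megakaryocytes gave 8 lower and 4 higher of 14 at 20 ppm, with a median of -0.46. Zfpm1, the partner of GATA factors (-1.56 ± 0.133), Lyl1 (-1.44 ± 0.172), Mafg (-1.0 ± 0.0903) and Gata2 (-0.95 ± 0.165) were lower. Runx1 was higher (1.81 ± 0.173), and Lmo2 was 0.23 ± 0.121 and not called. The plot of the lists shows that calls lay on both sides of 0 in each of these 5 lists.

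**Figure D3:**
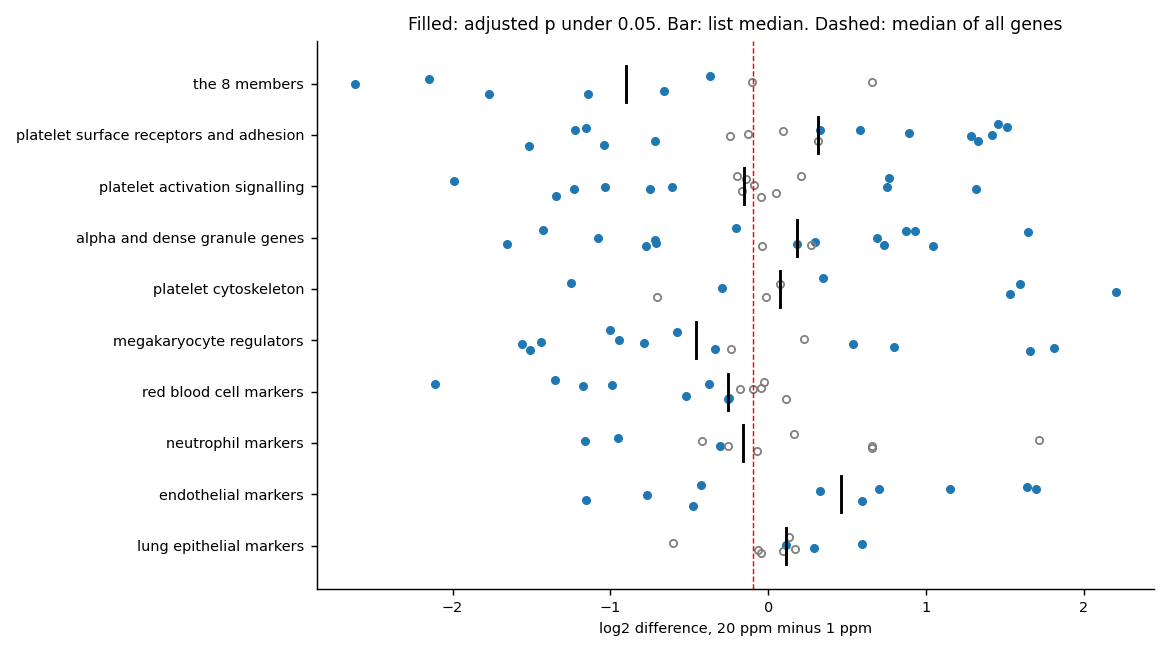
Each point is the log2 difference of 1 gene between 20 and 1 ppm, filled where limma's adjusted p was under 0.05, with a bar at the median of each list and a dashed line at the median of all genes, -0.10. The 8 platelet and megakaryocyte genes have a median of -0.90, with 6 filled points below 0, and the 5 other platelet lists have filled points on both sides.

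Markers of other cells in the lung were set beside these. Of all genes, 36.1% were called lower and 31.9% higher at 20 ppm, and 39.5% and 31.2% at 10 ppm. Several counts of these markers are near or below those shares, and nothing is read from the counts. Of 10 endothelial markers 4 were lower and 6 higher at both concentrations: Tie1 (-1.16 ± 0.111), Cldn5 (-0.77 ± 0.105) and Ramp2 (-0.43 ± 0.0791) were lower and Tek (1.69 ± 0.161) and Emcn (1.64 ± 0.157) higher at 20 ppm. Among 10 neutrophil markers 3 were lower at 20 ppm, the granule genes Camp (-0.95 ± 0.285), Ngp (-1.16 ± 0.445) and Elane (-0.30 ± 0.110), while S100a8 (-0.07 ± 0.456) and S100a9 (0.66 ± 0.490) were not called. Of 7 B and T cell markers 2 were lower and 3 higher, of 8 mast cell markers 2 were lower, and of 9 lung epithelial markers 3 were higher. The part of these cells in the platelet gene values was not tested.

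Within a concentration, mice that were high in 1 of the 8 genes were high in the others. Each value was taken as its deviation from the mean of its group, over all 35 mice, and mice were permuted within groups 100000 times. All 28 pairs of genes had a positive correlation, with a median Pearson r of 0.58 and a range of 0.346 to 0.813, and 18 pairs had an r over 0.5. The same share among all pairs of genes was not computed, so the count is not read as particular to these genes. After adjustment over the 28 pairs, r passed 0.05 in 28 and Spearman's rho in 27. The pair that missed it in rho was Gp6 and Itgb3 (r = 0.419, rho = 0.362, permutation p of rho = 0.0553).

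The highest correlation was that of Gp5 with Itgb3 (r = 0.813, rho = 0.808, permutation p = 1e-05, adjusted p = 4.67e-05), at the smallest p these permutations can give. It was 0.773 without the 2 mice farthest from the median of Gp5. Gp1bb and Ppbp, which differed in opposite directions between the sets of groups, came next (r = 0.809, rho = 0.741, permutation p = 1e-05, adjusted p = 4.67e-05). Without 20 ppm mouse 3 and 120 ppm mouse 4 their r was 0.712. Gp1bb and Gp9, of the same complex, had an r of 0.790 (rho = 0.829, permutation p = 1e-05, adjusted p = 4.67e-05), and 0.824 without those mice. Pf4 and Ppbp had an r of 0.522 (rho = 0.511, permutation p = 0.00332, adjusted p = 0.00516), and 0.450 without 1 ppm mouse 3 and 120 ppm mouse 4.

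Mice at the ends of this common variation can be named. The mean standardised deviation over the 8 genes was lowest in 40 ppm mouse 1 (-1.54), 20 ppm mouse 3 (-1.39) and 120 ppm mouse 4 (-1.32), and highest in 20 ppm mouse 2 (1.45) and 120 ppm mouse 2 (1.24). In 20 ppm mouse 3 both Gp1bb (4.57) and Ppbp (6.63) were the lowest of their group, and in 120 ppm mouse 4 likewise (3.77 and 7.18). In air and 1 ppm alone, over 10 mice, 27 of the 28 pairs were positive with a median r of 0.569, and over the 25 mice from 5 ppm up all 28 were, with a median of 0.613. The pattern was thus present in both sets of arrays.

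**Figure D4:**
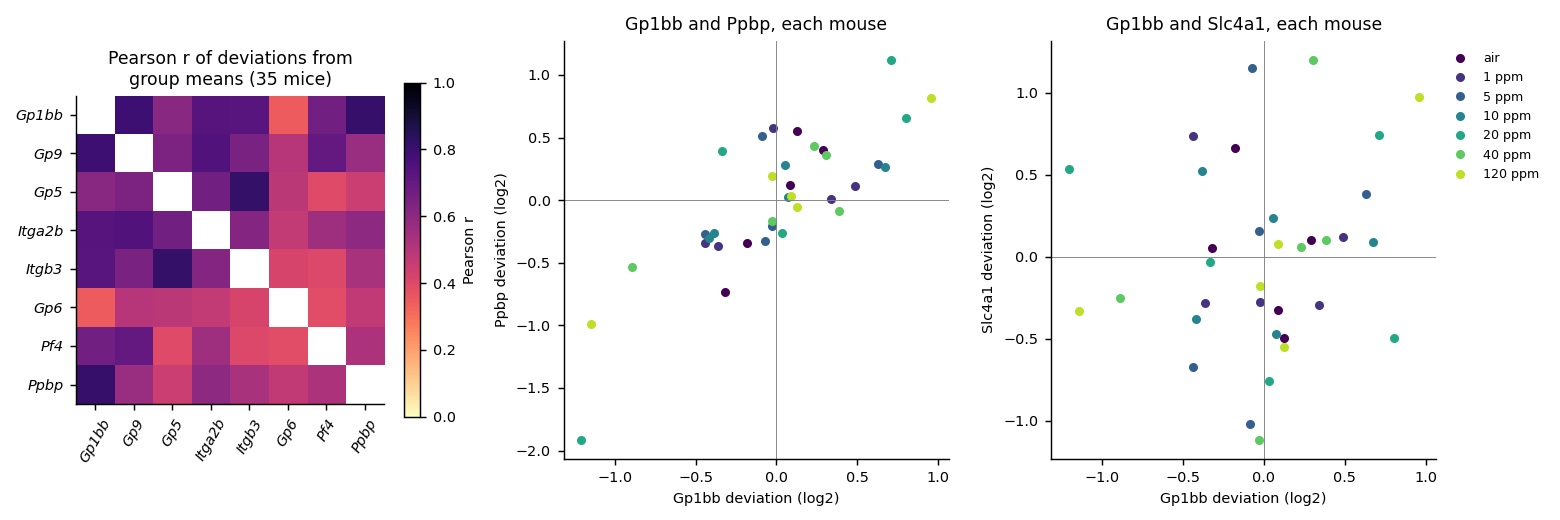
The left panel shows Pearson's r of deviations from the group means for each pair of the 8 genes over 35 mice, and the other panels show the deviation in log2 of each mouse for Gp1bb against Ppbp and for Gp1bb against Slc4a1, coloured by concentration. Every pair in the left panel lies between 0.346 and 0.813, and mice low in Gp1bb are low in Ppbp.

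With red blood cell markers the correlations were low, and a part of red blood cell RNA in the common variation was not tested. The mean deviation of the 8 genes had an r of 0.048 with Slc4a1, 0.097 with Alas2 and 0.105 with the mean of the 13 red blood cell markers over 35 mice. Its r was 0.019 with the interquartile range of the array and -0.16 with the array axis. Of the other lists it was most related to the 17 further receptor and adhesion genes (0.641) and the cytoskeleton genes (0.551). It had an r of 0.378 with the granule genes, 0.371 with the signalling genes, 0.128 with the megakaryocyte regulators and -0.099 with Septin5. With markers of other cells it was 0.263 for neutrophil, 0.288 for endothelial, 0.304 for B and T cell, 0.160 for mast cell and 0.098 for lung epithelial markers. These 16 relations share the same arrays and are given without a p, since the mean is a score over genes chosen with results known.

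Of all genes outside the list, 8 had the highest r with that mean deviation over the 35 mice. They were Clec1b (0.825), Slc2a3 (0.810), Nrgn (0.805), Slc6a4 (0.729), Treml1 (0.697), Myh9 (0.686), Tmem40 (0.636) and 5830468F06Rik (0.625). Clec1b encodes the platelet receptor CLEC-2, Slc2a3 a glucose transporter, Slc6a4 the serotonin transporter, Treml1 a receptor of alpha granules and Myh9 a myosin heavy chain. Nrgn, neurogranin, is known best from neurons.

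Their differences between 20 and 1 ppm were not of 1 kind. Nrgn (-1.65 ± 0.222 log2, limma adjusted p = 8.6e-08), Tmem40 (-1.50 ± 0.181, adjusted p = 1.05e-08), Treml1 (-1.04 ± 0.254, adjusted p = 0.000575) and Slc2a3 (-1.01 ± 0.239, adjusted p = 0.000422) were lower, as was 5830468F06Rik (-0.35 ± 0.141, adjusted p = 0.0299). Slc6a4 (-0.33 ± 0.215, adjusted p = 0.167) and Myh9 (0.08 ± 0.0913, adjusted p = 0.471) were not called. Clec1b was higher by 1.29 ± 0.272 (adjusted p = 0.000109), with all 5 mice above the 1 ppm mean. Its group means were 5.56 in air, 5.66 at 1 ppm, 7.12 at 5 ppm, 6.93 at 10 ppm, 6.94 at 20 ppm, 6.96 at 40 ppm and 6.75 at 120 ppm. Clec1b and Ppbp thus had means above those of air and 1 ppm at every concentration from 5 ppm up. Within groups Ppbp had an r of 0.701 with the mean of the other 7 genes over 35 mice.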

How the data were processed

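RNA was prepared by Trizol extraction and RNeasy columns and labelled with biotin by an Affymetrix 3' IVT kit, per the labels. The deposited table holds a log2 value for each probe set and array, and the submitters' processing notes name RMA and Partek, without version or role. RMA subtracts background, normalises and sums up the probes of a set. An array gives no read depth, so precision depends on how many arrays there are. Of 45037 probe sets, 28898 carried 1 symbol in the platform annotation, 551 several and 15588 none, and the last 2 kinds were left out. Entrez identifiers matched 28689 of them to the reference table and updated 0 symbols.

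A mean for each of 7 groups was fitted with limma 3.58.1 (R 4.3.3, eBayes). A gene was called where its Benjamini-Hochberg adjusted p, over 17097 genes, was under 0.05. Tests are two-sided, and their error is the variation among mice treated alike. The members and lists were chosen with earlier results of these data known. Named were all measured members, from each list up to 4 genes with the smallest adjusted p at 20 against 1 ppm and up to 2 with the highest level, Septin5, Slc4a1, Alas2 and the 8 genes most like the members. Lymphocyte, mast cell and epithelial markers are given as counts. Alternatives were other probe set rules, scalings, filters, weights, priors and thresholds, a block for mouse number, 2 covariates, and each mouse left out. Mouse numbers were not taken to pair the samples. Of 105 same-number pairs, 46 correlated over 0.1 (median 0.065). The median of 420 pairs with different numbers was -0.0077, and their share over 0.1 was not computed. These values do not show that the numbers carry no pairing, and the fit with a block for mouse number is given below.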

Additional observations from a re-analysis of the deposited data

Results flagged for a closer look

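In Gp5, 1 ppm mouse 1 lay far below the rest of its group, at 6.46 log2 with the nearest mouse at 7.11, a gap of 0.840 of the range of the group against a critical value of 0.71 for 5 mice. It was the only such value in 56 groups of 5 mice, and chance gives about 1 in 20.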

How the results depend on the processing

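The 6 genes called lower against 1 ppm were 5 or 6 with any 1 mouse left out, 6 or 7 after another scaling, and 6 with mouse number as a replicate block, at either concentration. With the interquartile range as a covariate 3 were called at both, beside 6.6% and 5.95% of all genes. These were Gp1bb, Gp9 and Itga2b, which were among the farthest falls behind the choice of the list. Nothing is read from that count. The other platelet genes called lower were 29 to 30 at 10 ppm and 25 to 29 at 20 ppm with 1 mouse left out. The array axis gave 15 of 73 at 10 ppm and 16 at 20 ppm, beside 11% and 14.1% of all genes, and the interquartile range 12 and 11, beside 6.6% and 5.95%. Ppbp against 1 ppm went to -0.75 and -0.54 with the axis and to -0.40 at both with the interquartile range, and against air with the axis to -0.71 at 5, -0.39 at 10, -0.18 at 20 and -0.20 at 40 ppm. Itgb3 at 10 ppm was 0.016 without 10 ppm mouse 3. With the mean of its probe sets it was called (-0.36 and -0.37), as it was at 20 ppm after quantile normalization (-0.39, adjusted p = 0.0388). Ppbp minus Pf4 ranged from 1.47 to 1.72 at 10 ppm and from 1.12 to 1.74 at 20 ppm with 1 mouse left out. Centring arrays on their medians moved the median of all genes at 10 ppm from -0.14 to -0.24, and leaving out the dimmer genes moved it to 0.24. No mouse-number block changed a call of the 8 genes. Dim probe sets limit what Gp6 and the second Itgb3 probe set can show.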
